A study of Anopheles dirus with 6 samples.

Results

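Of the 13250 gene IDs in the expression table of *An. dirus* females, 173 occurred in 2 or more rows, and these IDs held 421 of the 13498 rows. Every ID that was listed more than once was taken, whatever its values. The table gives no transcript names, and its rows were read as separate transcripts of a gene because the methods of the study give TPM per transcript. The same methods also speak of gene abundance, so this reading is not certain. In what follows a row is numbered by its place in the list of its ID, the ID sum is the total of its rows, and the main row is the row with the highest mean over the 6 libraries. No gene names accompany the IDs in the files, so the role of a gene cannot be stated here, and the label of whole females was not checked against tissue markers.

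RNA came from whole females of the Hainan strain, pooled by 30 per sample and taken 24 h after a blood meal, with 3 samples per group. AdBs24h females had survived a sublethal dose of *Bacillus sphaericus* strain 2362, a spore-forming bacterium now named *Lysinibacillus sphaericus* whose toxins kill mosquito larvae, whereas AdCtrl24h females came from larvae that were not exposed. The labels place the exposure in the early larval instar 4, and the methods of the study in instar 3. By the methods of the study the samples of a group are independent biological replicates. The labels describe feeding larvae with dried pork liver and yeast and adults with sugar solution, for both groups alike. The comparison asked what larval exposure changed in the transcriptome of surviving adults.

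Insect genes often give several transcripts, through alternative promoters, alternative splicing and alternative ends. Such transcripts can differ in their coding sequence or only in their untranslated regions. Transcripts of a gene share exons, and reads from a shared exon have to be divided among them by a statistical model, so the values of the rows of an ID are not independent estimates. In the female mosquito a blood meal starts a wave of transcription in midgut, fat body and ovary that leads to yolk deposition and egg maturation. Values are TPM (transcripts per 1000000), which corrects reads for transcript length and scales them to a fixed total per library.

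The listed TPM summed to 497690 to 520670 in the AdBs24h group and to between 511952 and 524312 in the AdCtrl24h group. Read as TPM, with a total of 1000000 per library, the listed rows do not make up the whole. Depth cannot be read from TPM. The study lists mapped reads per library, but no read counts per row were at hand, so the counting error of single values is unknown. On log2(TPM + 1) the root mean square difference between libraries was 0.58 to 0.62 within AdBs24h, 0.52 to 0.55 within AdCtrl24h and 0.56 to 0.71 between AdBs24h and AdCtrl24h. AdBs24h replicate 3 lay farthest from the controls, at 0.63 to 0.71.

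Most IDs with several rows had few of them. There were 129 IDs with 2 rows, 34 with 3, 4 with 4 and 3 with 5, and 1 ID each had 6, 7 and 17 rows. Together they held 1.89% to 1.98% of the listed TPM in AdBs24h and 1.93% to 1.98% in AdCtrl24h. The median of the mean ID sum was 3.96 TPM, against 0.712 TPM for the 13077 IDs with 1 row. The highest row alone had a median of 3.09 TPM, which is also above the median of IDs with 1 row. That row was picked by its value, which raises its level. Of the 173 IDs, 13 averaged 100 TPM or more, 52 lay between 10 and 100 TPM and 45 between 1 and 10 TPM. A further 51 were above 0 with a mean under 1 TPM, and 12 were listed at 0 in all libraries. A mean of at least 1 TPM was thus reached by the sums of 63.6% of them, against 47.4% of IDs with 1 row. The highest row alone reached it in 59.5%.

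**Figure D1:**
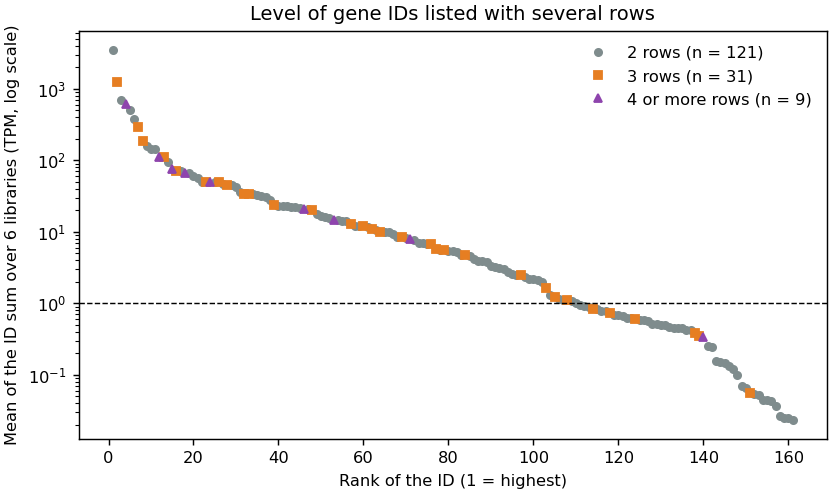
Mean of the ID sum over the 6 libraries (TPM, log axis) for the 161 IDs with several rows and a value above 0, ranked from the highest. Symbols give the number of rows per ID and the dashed line marks 1 TPM. IDs with 2 rows run from 0.0233 to 3513 TPM and those with 3 rows from 0.0567 to 1256 TPM, while the 9 with 4 or more rows lie between 0.34 and 603 TPM.

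A small number of IDs held most of this abundance. The 2 highest IDs made up 47.6% of the mean TPM of all 173, and the 8 highest 74.2%. ADIR015903 was the highest, with ID sums of 3463, 3245 and 3465 TPM in AdBs24h and 3652, 3684 and 3568 TPM in AdCtrl24h. Its row 1 had nearly the same level in both groups (2930 ± 128 TPM in AdBs24h and 3020 ± 55.5 TPM in AdCtrl24h, SD, n = 3 each). Its row 2 stood at 509, 457 and 427 TPM in AdBs24h against 569, 706 and 570.1 TPM in AdCtrl24h. The groups did not overlap in row 2, and the log2 fold change was -0.40 with a standard error (SE) of 0.11, which did not pass the test (adjusted p = 0.291, limma with Benjamini-Hochberg adjustment over all 6391 rows tested).

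The next IDs were divided among their rows in different ways. ADIR015959, at 1271, 1320 and 1251 TPM in AdBs24h and 1297, 1242 and 1156 TPM in AdCtrl24h, was divided between row 1 and row 3. Row 3 had means of 627 TPM in AdBs24h and 611 TPM in AdCtrl24h, and row 1 of 552 TPM in AdBs24h and 528 TPM in AdCtrl24h. In AdBs24h replicate 3 alone row 1 exceeded row 3, at 585 against 568 TPM. ADIR009755 was the opposite case, with 506 ± 15.4 TPM in AdBs24h and 517 ± 20.9 TPM in AdCtrl24h in row 1 and under 2.1 TPM in row 2 of every library. ADIR008162 kept row 1 at 324 to 338 TPM in AdBs24h and 329.9 to 337 TPM in AdCtrl24h. Its row 2 varied more, at 56.7, 42.1 and 27.6 TPM in AdBs24h and 40.5, 62.6 and 40.0 TPM in AdCtrl24h, and the groups overlapped.

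ADIR015506 and ADIR015880 also had a clear main row. Row 1 of ADIR015506 had means of 512 ± 21.2 TPM in AdBs24h and 501 ± 23.9 TPM in AdCtrl24h, and row 2 of 208 ± 34.4 TPM in AdBs24h and 178 ± 29.8 TPM in AdCtrl24h. Row 1 of ADIR015880 had means of 520 ± 44.1 TPM in AdBs24h and 544 ± 41.6 TPM in AdCtrl24h. The 2 weakest of its 4 rows were higher in every AdBs24h library than in any AdCtrl24h library. Row 3 stood at 7.85, 8.84 and 9.93 TPM in AdBs24h against 6.94, 5.13 and 4.70 TPM in AdCtrl24h (log2 fold change 0.59, SE 0.162, adjusted p = 0.291 by limma). Row 4 stood at 4.76, 7.65 and 10.4 TPM in AdBs24h against 4.42, 4.65 and 2.14 TPM in AdCtrl24h (log2 fold change 0.85, SE 0.335, adjusted p = 0.405 by limma). Neither row passed the test.

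The IDs with the most rows stood at very different levels. ADIR005147, with 17 rows, had ID sums of 0.07, 0.62 and 0.12 TPM in AdBs24h and 0.44, 0.38 and 0.41 TPM in AdCtrl24h, and the groups overlapped. The highest value of any of its rows was 0.24 TPM. Row 17 of this ID was listed at 0 in all AdBs24h libraries and at 0.13, 0.13 and 0.12 TPM in AdCtrl24h. It was the 1 row of the 421 (0.238%) that was at 0 throughout 1 group and above 0 throughout the other, against 73 of the 13077 IDs with 1 row (0.558%). At this level it was not tested. All 7 rows of ADIR014367 were listed at 0 in all libraries. ADIR001575, in contrast, had 6 rows that were all above 0 in every library, with sums of 65.7, 58.7 and 62.5 TPM in AdBs24h and 68.3, 68.4 and 70.4 TPM in AdCtrl24h. Its main row, row 3, held 31.2%, 26.0% and 33.1% of the sum in AdBs24h and 27.8%, 24.7% and 23.5% in AdCtrl24h, the lowest mean share (27.7%) among the IDs examined for shares. Row 1 of ADIR001575 had 14.5 ± 2.8 TPM in AdBs24h and 17.2 ± 2.02 TPM in AdCtrl24h, close to row 3. Row 3 had the highest mean in both groups but led in no AdCtrl24h library. There row 1 led in replicates 1 and 2 and row 5 in replicate 3, and row 1 also led in AdBs24h replicate 2. The sums of this ID did not overlap between the groups (log2 fold change -0.15, adjusted p = 0.413 by limma), and they did not pass the test. Of the 3 IDs with 5 rows, ADIR015671 and ADIR015703 rested mainly on 1 row each, row 1 of ADIR015671 at 94.9 TPM in AdBs24h and 90.7 TPM in AdCtrl24h and row 4 of ADIR015703 at 15.3 TPM in AdBs24h and 13.5 TPM in AdCtrl24h. In ADIR014396 row 2 held 60.3%, 34.6% and 61.1% of the sum in AdBs24h and 57.5%, 78.6% and 71.1% in AdCtrl24h, and row 4 led in AdBs24h replicate 2.

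Within a library, rows at 0 were about as frequent among these IDs as among IDs with 1 row. In each AdBs24h library 147 to 162 of the 421 rows were listed at 0 (34.9% to 38.5%), and in each AdCtrl24h library 155 to 158 (36.8% to 37.5%). Among IDs with 1 row the share was 36.3% to 37.4% in AdBs24h and 36.5% to 36.8% in AdCtrl24h. Of the 421 rows, 206 were above 0 in every library, 131 were at 0 in 1 to 5 libraries and 84 were at 0 in all 6. Rows at 0 in 1 to 5 libraries made up 31.1% of the 421 rows, against 25% of IDs with 1 row, and rows at 0 in all 6 made up 20%, against 23.2%. These 84 rows lay in 55 IDs, 14 of which had sums of at least 1 TPM in every library. A listed 0 can be a failed estimate and was not read as absence.

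A row that reached 5 TPM in a library was rarely at 0 in another. This was so for 4 of 137 rows (2.92%), against 222 of 5092 IDs with 1 row (4.36%). Row 1 of ADIR001714 was the most marked of them, at 14.27, 4.66 and 17.01 TPM in AdBs24h and 0, 0 and 8.86 TPM in AdCtrl24h. Row 3 of the same ID stood at 10.78, 17.04 and 9.07 TPM in AdBs24h and 22.7, 18.2 and 14.6 TPM in AdCtrl24h, so the library with more of row 1 had less of row 3 within each group. The others were row 2 of ADIR014291, row 1 of ADIR015670 and row 1 of ADIR016148. The last was at 9.27, 5.16 and 0 TPM in AdBs24h and 2.93, 7.86 and 7.05 TPM in AdCtrl24h. These 4 rows were picked for this pattern after their values were seen.

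Shares were examined for the 100 IDs with a sum of at least 1 TPM in every library. ADIR014485, ADIR014205 and ADIR002034 lay just inside this limit, with lowest sums of 1.05, 1.15 and 1.63 TPM, and ADIR015943, ADIR009121 and ADIR015025 just outside it, at 0.97, 0.87 and 0.74 TPM. The main row held a median of 82.9% of the ID sum, with quartiles of 62.6% and 95.6%. It held at least 95% in 27 IDs and under 50% in 10. In 9 IDs no other row was above 0 in any library. The median share was 85.9% in the 70 IDs with 2 rows, 65.0% in the 22 with 3 rows and 47.7% in the 4 with 4 rows. It was 83.2% in the 3 IDs with 5 rows and 27.7% in the 1 with 6 rows. Its place in the list did not mark the main row: among IDs with 2 rows it was row 1 in 37 and row 2 in 33.

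The median share was near 83% in every library, at 85.1%, 80.8% and 83.7% in AdBs24h and 84.6%, 83.9% and 83.9% in AdCtrl24h. A single share varied by a few percentage points between replicates, with a median SD of 3.58 in AdBs24h and 3.04 in AdCtrl24h. The variation was larger at low levels. For the 35 IDs with a mean sum under 10 TPM the median SD was 5.77 in AdBs24h and 5.2 in AdCtrl24h, and for the 65 IDs at 10 TPM or more it was 3.07 in AdBs24h and 2.66 in AdCtrl24h. The mean distance of a library from the 6-library mean was 4.86 to 5.81 percentage points in AdBs24h and 5.02 to 5.55 in AdCtrl24h, highest in AdBs24h replicate 3.

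The same row led in all 6 libraries in 77 of the 100 IDs, which include the 9 with no other row above 0. In the other 23 the highest row changed between libraries, and among these 23 IDs no main row held a mean share above 83.5%. The most even IDs with a mean sum of at least 10 TPM, measured by the entropy of the mean row levels, were ADIR015941, ADIR008730 and ADIR009756, which have 2 rows each. Row 1 of ADIR008730 had 10.9, 9.49 and 10.7 TPM in AdBs24h and 9.37, 13.7 and 14.9 TPM in AdCtrl24h, and row 2 had 9.05, 12.1 and 5.54 TPM in AdBs24h and 11.1, 12.6 and 12.5 TPM in AdCtrl24h. Row 1 of ADIR009756 had means of 5.34 TPM in AdBs24h and 4.76 TPM in AdCtrl24h, and row 2 of 6.14 TPM in AdBs24h and 5.10 TPM in AdCtrl24h. In ADIR008730 and ADIR009756 either row led in some libraries of both groups.

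**Figure D2:**
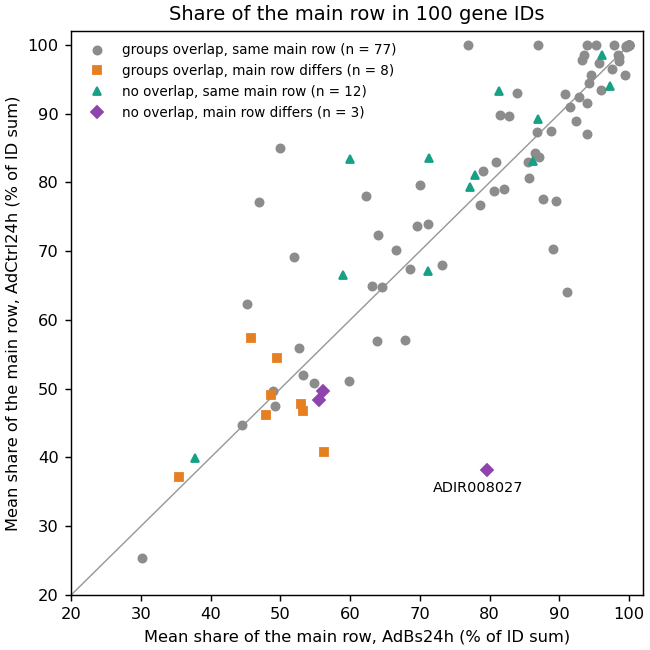
Mean share of the main row in AdBs24h (horizontal axis) and AdCtrl24h (vertical axis), in percent of the ID sum, for 100 IDs with several rows. The line marks equal shares, and symbols tell whether the libraries of the groups overlap and whether the row with the highest group mean is the same. Most IDs lie near the line, and ADIR008027 lies far below it at 79.7% in AdBs24h and 38.1% in AdCtrl24h.

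The row with the highest group mean was the same in AdBs24h and AdCtrl24h in 89 of the 100 IDs and a different one in 11. The 89 include the 9 IDs with no other row above 0, where it could not differ. The main rows of the 11 held mean shares of 36.4% to 58.9%, so in each of them more than 1 row contributed much of the sum. Their median difference in share between the groups was 6.59 percentage points. The 8 IDs with the largest differences are described here.

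ADIR008027 was the 1 ID of the 100 in which the lead divided exactly by group. Its row 1 was at 2.05, 1.5 and 1.64 TPM in AdBs24h against 0.84, 0.74 and 0.86 TPM in AdCtrl24h, and its row 2 at 0.31, 0.46 and 0.53 TPM in AdBs24h against 1.63, 1.55 and 0.93 TPM in AdCtrl24h. Row 1 led in all AdBs24h libraries and row 2 in all AdCtrl24h libraries, by a small margin in AdCtrl24h replicate 3. Row 1 held 86.9%, 76.5% and 75.6% of the sum in AdBs24h and 34.0%, 32.3% and 48.0% in AdCtrl24h, a difference of 41.5 percentage points. The ID sum overlapped between the groups, at 2.36, 1.96 and 2.17 TPM in AdBs24h and 2.47, 2.29 and 1.79 TPM in AdCtrl24h (log2 fold change -0.00, adjusted p = 0.994 by limma). No test of the single rows is given, since row 1 reached a mean of 1 TPM only through AdBs24h and row 2, with a mean of 0.902 TPM, did not reach it. The ID lies near the lower limit of the levels examined, where the counting error is unknown.

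By the group means a different row also led by a small margin in ADIR002595 and ADIR016144. Row 2 of ADIR002595 held 54.7%, 56.1% and 57.7% of the sum in AdBs24h against 46.0%, 51.8% and 50.8% in AdCtrl24h. Row 2 of ADIR016144 held 54.4%, 52.7% and 59.3% in AdBs24h against 50.5%, 44.5% and 50.2% in AdCtrl24h. Row 2 thus still led in AdCtrl24h replicates 2 and 3 of ADIR002595 and in AdCtrl24h replicates 1 and 3 of ADIR016144. The shares of the groups did not overlap in either ID. The sums of both IDs overlapped between the groups, with log2 fold changes of -0.02 for ADIR002595 and 0.07 for ADIR016144.

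In the other 5 of these 8 IDs the shares of the groups overlapped. Row 1 of ADIR008363 held 34.5%, 48.6% and 54.0% in AdBs24h and 60.9%, 64.3% and 47.1% in AdCtrl24h. Row 2 of ADIR014515 held 50.2%, 50.9% and 67.5% in AdBs24h and 21.6%, 59.2% and 41.4% in AdCtrl24h. Row 2 of ADIR014482 held 60.5%, 60.1% and 39.4% in AdBs24h and 45.9%, 56.6% and 37.5% in AdCtrl24h. In each of the 5 the range within at least 1 group exceeded the difference between the group means. ADIR014326 was the extreme case, where row 2 held 81.5%, 21.9% and 45.1% in AdBs24h and 77.0%, 13.2% and 73.0% in AdCtrl24h. Row 2 of ADIR015941, the most even ID, held 53.8%, 53.2% and 51.7% in AdBs24h and 46.7%, 41.9% and 54.6% in AdCtrl24h.

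**Figure D3:**
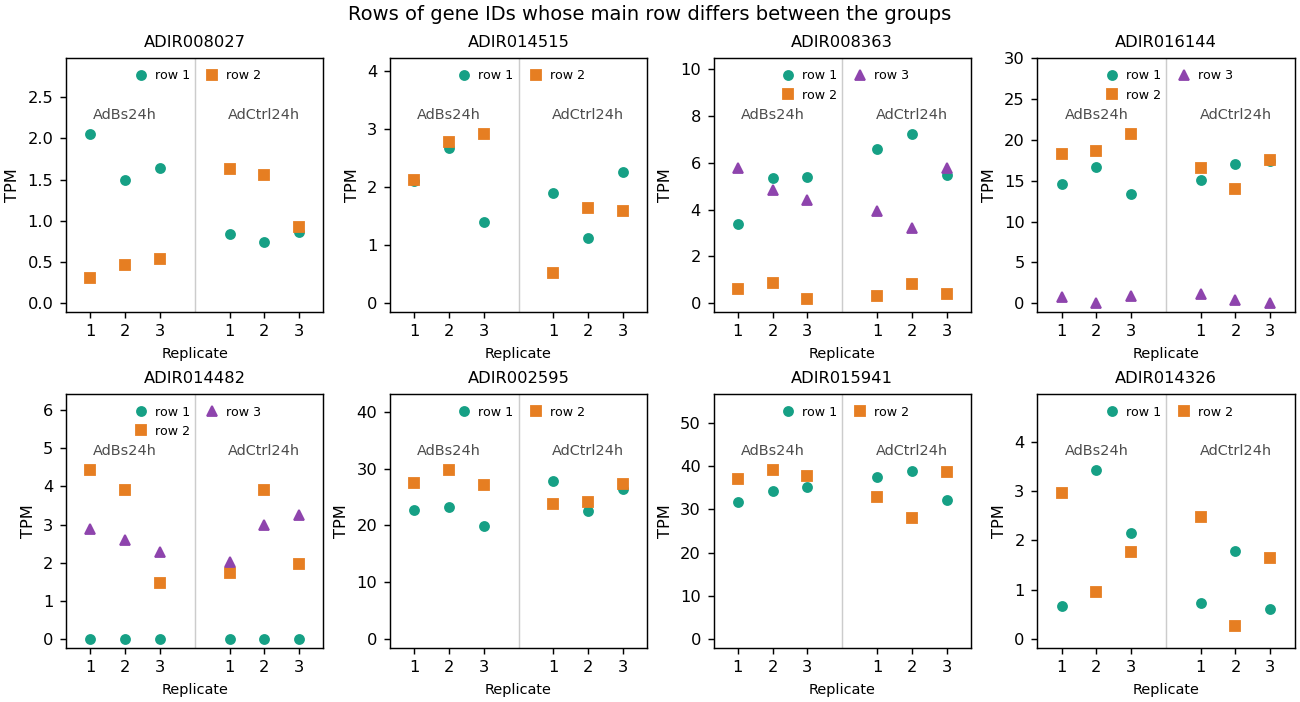
TPM of every row in each library for the 8 IDs with the largest difference in share among those whose leading row differs between the groups, AdBs24h left and AdCtrl24h right in each panel. In ADIR008027 the order of the rows turns round between the groups in every library, whereas in the other IDs the order also changes among the replicates of at least 1 group.

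Across the 100 IDs the share of the main row differed between the group means by a median of 3.11 percentage points in either direction. The difference was under 5 points in 66 IDs and over 10 points in 18. The 66 include the 9 IDs with no other row above 0, where the difference is fixed at 0 and groups cannot be apart. Libraries of the groups did not overlap in 15 of the 100 IDs (15%), of which 6 had a higher and 9 a lower share in AdBs24h. Shares exist only for IDs with several rows, so there is no wider set of IDs to read this count against. With 1 library left out the count was 22 to 28. Fewer libraries then have to be apart, so this rise is no check of the 15. Of the 18 IDs with a difference over 10 points, 4 were without overlap. Of the 15 without overlap, 8 differed by less than 5 points, and in ADIR014587 the nearest libraries of the groups, both at 79.6%, were apart by less than the rounding.

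After ADIR008027, the largest differences without overlap were found in ADIR014390, ADIR014148, ADIR015773 and ADIR016016, each of which kept the same main row in all libraries. Row 2 of ADIR014390 held 62.7%, 61.0% and 56.5% of the sum in AdBs24h against 67.3%, 87.6% and 95.3% in AdCtrl24h, where the replicates were far apart. Its other row was at 2.17, 2.66 and 2.83 TPM in AdBs24h against 1.17, 0.38 and 0.13 TPM in AdCtrl24h, and reached a mean of 1 TPM only through AdBs24h. Row 1 of ADIR014148 held 66.5%, 74.9% and 72.4% in AdBs24h against 88.3%, 86.0% and 76.3% in AdCtrl24h. Row 2 of ADIR015773 held 86.5%, 81.2% and 76.3% in AdBs24h against 87.6%, 100% and 92.3% in AdCtrl24h, and the value of 100% stands for a library with row 1 listed at 0. Row 1 of ADIR016016 held 54.7%, 62.7% and 59.4% in AdBs24h against 68.7%, 65.7% and 65.1% in AdCtrl24h. The difference between the group means was -23.4, -12.2, -12 and -7.59 percentage points in this order. No p is given for these shares, because with 3 libraries per group an exact two-sided permutation test gives its smallest p of 0.1 to every ID without overlap. The ID sum of ADIR014390 was higher in every AdBs24h library. It was at 5.81, 6.82 and 6.5 TPM in AdBs24h against 3.58, 3.06 and 2.79 TPM in AdCtrl24h. Its log2 fold change was 0.83 (SE 0.135, adjusted p = 0.136 by limma). The sum of ADIR015773 was lower in every AdBs24h library (log2 fold change -0.24, adjusted p = 0.427 by limma). The sums of ADIR014148 and ADIR016016 overlapped between the groups.

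**Figure D4:**
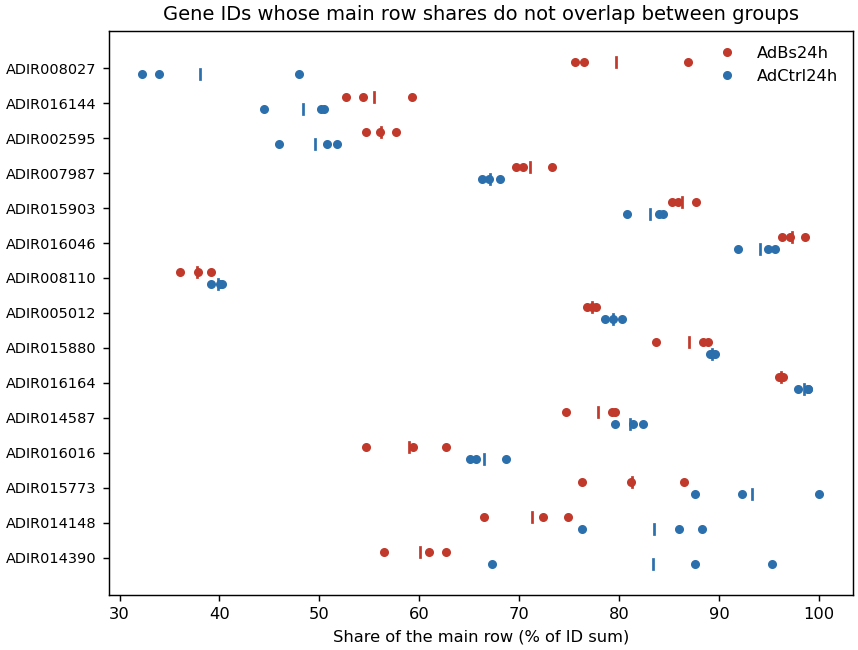
Share of the main row (percent of the ID sum) in each library for the 15 IDs whose groups do not overlap, AdBs24h in red above AdCtrl24h in blue. Points are libraries and short lines group means (n = 3). The difference runs from 41.5 percentage points in ADIR008027 at the top to -23.4 in ADIR014390 at the bottom, and 8 of the 15 IDs differ by less than 5 points.

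The summed level was tested where the mean reached at least 1 TPM, which held for 110 of the 173 IDs. By limma none of them passed an adjusted p of 0.05, against 0.0950% of all 6315 IDs tested (0.0633% higher and 0.0317% lower in AdBs24h). At an unadjusted p under 0.05 there were 16 (14.5% of the 110, against 12.0% of all IDs). Higher values in AdBs24h made up 12 of these (10.9% of the 110, against 5.97% of all IDs). Lower values made up 4 (3.64% of the 110, against 5.99% of all IDs). Without AdCtrl24h replicate 2 there were 9 (8.18% of those tested), and the share of all IDs was 7.58%. AdBs24h and AdCtrl24h values did not overlap in 27 of the 110 IDs (24.5%, against 19.4% of all IDs). Of these 27, 18 had higher values in AdBs24h (16.4% of the 110, against 9.99% of all IDs). The other 9 had lower values (8.18% of the 110, against 9.42% of all IDs). ADIR008022, among the 18, reached a mean of 1 TPM only through AdBs24h.

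With rows kept apart, limma called 0 of 186 rows at an adjusted p of 0.05, against 0.0939% of all 6391 rows (0.0626% higher and 0.0313% lower in AdBs24h). An unadjusted p under 0.05 was found for 29 of the 186 (15.6%, against 12.0% of all rows). Of these 29, 21 had a higher value in AdBs24h (11.3% of the 186, against 6.01% of all rows). The other 8 had a lower one (4.30% of the 186, against 5.96% of all rows). No overlap was found for 42 of the 186 (22.6%, against 19.4% of all rows). Of these 42, 25 were higher in AdBs24h (13.4% of the 186, against 9.98% of all rows). The other 17 were lower (9.14% of the 186, against 9.44% of all rows). Row 1 of ADIR008027, in the 21 and the 25, reached a mean of 1 TPM only through AdBs24h. So did row 1 of ADIR014390, in the 25. Rows of an ID are not independent, so these counts are a description only. The median log2 fold change was 0.032 over the 110 sums, against 0.004 over all IDs tested. The lowest adjusted p from limma was 0.102 among the sums and 0.136 among the rows, so no change in level passed the test for any of these IDs.

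Of the sums with higher values in AdBs24h, ADIR007981 had the lowest p. It was at 126, 137 and 160.4 TPM in AdBs24h against 88.4, 74.8 and 76.1 TPM in AdCtrl24h, and its log2 fold change of 0.81 (SE 0.111) had an adjusted p of 0.102 by limma. All 3 of its rows were higher in every AdBs24h library. Row 1 carried most of the sum, at 109, 114 and 144 TPM in AdBs24h against 74.9, 62.7 and 64.3 TPM in AdCtrl24h. ADIR007987 followed, at 175, 187 and 215 TPM in AdBs24h against 136, 118 and 119 TPM in AdCtrl24h (log2 fold change 0.62, SE 0.0989, adjusted p = 0.136 by limma). Its 2 rows were both higher in every AdBs24h library, row 1 with a log2 fold change of 0.70 and row 2 with 0.43, and the share of row 1 did not overlap between the groups. In both IDs AdBs24h replicate 3, the library farthest from the controls, had the highest sum, and without it the log2 fold changes were 0.72 for ADIR007981 and 0.54 for ADIR007987.

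Of the sums with lower values in AdBs24h, ADIR014256 had the lowest p. It was at 255, 203 and 266 TPM in AdBs24h against 300.3, 353 and 359 TPM in AdCtrl24h (log2 fold change -0.49, SE 0.125, adjusted p = 0.289 by limma). Row 2 (118 ± 28.9 TPM in AdBs24h and 165 ± 10.5 TPM in AdCtrl24h) and row 3 (117 ± 9.56 TPM in AdBs24h and 166 ± 26.6 TPM in AdCtrl24h) were both lower in every AdBs24h library, whereas row 1 was at 5.91 to 6.69 TPM in AdBs24h and 5.84 to 7.23 TPM in AdCtrl24h. The 2 large rows held nearly equal parts of the sum, and either of them led in some libraries of both groups. ADIR014400 was at 10.4, 10.5 and 11.4 TPM in AdBs24h against 14.6, 12.9 and 13.5 TPM in AdCtrl24h (log2 fold change -0.32, SE 0.0821, adjusted p = 0.289 by limma). Its whole value lay in row 2, since row 1 was listed at 0 in all libraries. ADIR014491, one of the 8 highest IDs, was at 147, 198 and 124 TPM in AdBs24h against 208, 244 and 208 TPM in AdCtrl24h (log2 fold change -0.51, SE 0.175, adjusted p = 0.375 by limma). Its row 2 was without overlap, at 93.4, 107 and 91.5 TPM in AdBs24h against 128, 123 and 122 TPM in AdCtrl24h, and its row 3 overlapped, at 52.7, 88.9 and 32.3 TPM in AdBs24h and 79.3, 119 and 85.2 TPM in AdCtrl24h. Fewer cells of a type and less RNA per cell cannot be told apart in pools of whole females.

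**Figure D5:**
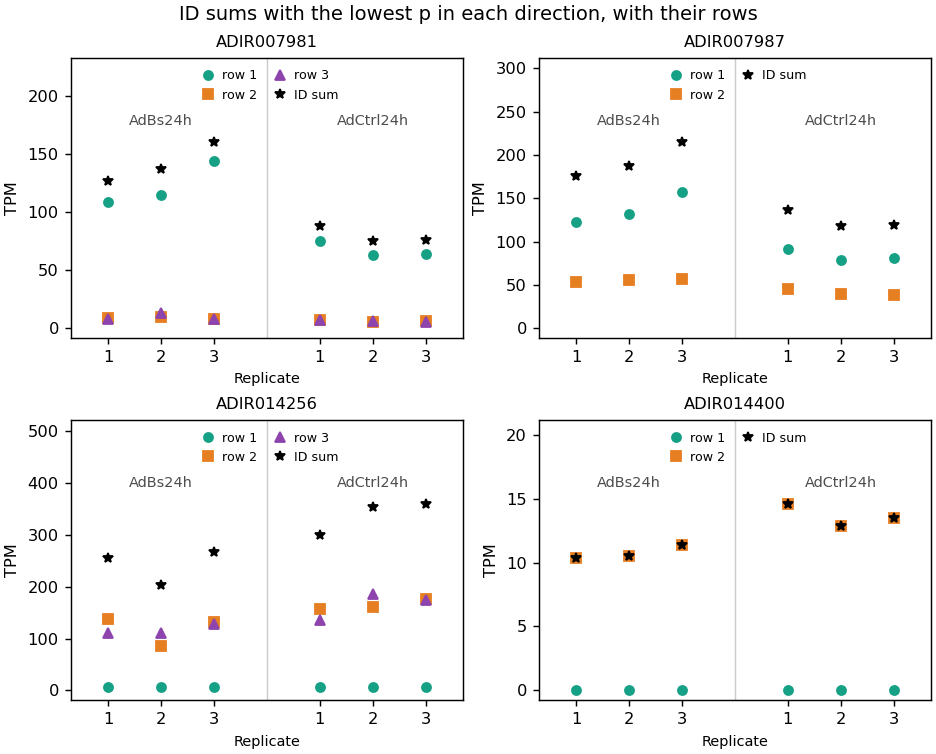
TPM of the ID sum (stars) and of each row in every library for the 2 IDs with higher and the 2 with lower values in AdBs24h that have the lowest p, AdBs24h left and AdCtrl24h right in each panel. The sums do not overlap between the groups, and none of the 4 passed an adjusted p of 0.05 from limma (0.102 to 0.289).

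The spread between replicates was compared for rows, ID sums and IDs with 1 row at like levels, which are different IDs in each class. Among features with a mean of 10 to 100 TPM, the median SD within groups on log2(TPM + 1) was 0.16 for 73 rows, 0.11 for 52 ID sums and 0.12 for 3070 IDs with 1 row. At 1 to 10 TPM it was 0.29 for 98 rows, 0.20 for 45 ID sums and 0.27 for 2559 IDs with 1 row. At 100 TPM or more it was 0.12 for 15 rows, 0.11 for 13 ID sums and 0.10 for 576 IDs with 1 row. For 62 IDs with at least 2 rows of 1 TPM or more, the variance of the sum within groups was compared with the summed variances of these rows. It was smaller in 37 and larger in 25, with a median ratio of 0.861. These values are a description over IDs, which are not replicates.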

How the data were processed

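Per the methods of the study, the authors used Fastp for trimming, HISAT2 for alignment (version 2.1.0 in the submitters' processing notes), StringTie for assembly, RSEM for quantification as TPM and DEGseq for their tests, whereas the authors' processing notes name DESeq2 1.24.0. The deposited table does not name a unit, and TPM was taken from these methods. For the genome build, nothing was given in the sources used here.

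Rows of an ID were kept apart and also summed. Features with a mean of at least 1 TPM were compared on log2(TPM + 1), which understates folds of low values, with limma 3.58.1 in R 4.3.3 (trend and robust options, no block, AdBs24h minus AdCtrl24h, Benjamini-Hochberg adjustment over the whole table). Shares were described by their values, and exact permutation tests of them were computed with SciPy 1.17.1.

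The members and rules were chosen with earlier results of these data known. IDs named were the 8 highest, the 5 with most rows (ties by the higher mean sum), up to 8 with another main row in each group, the 5 with the largest share differences without overlap, the 2 higher and 2 lower of lowest p, and the 3 most even. Rows listed at 0 in 1 group and reaching 1 TPM in all libraries of the other were also to be named, and there were none (0 of 421, against 7 of 13077 IDs with 1 row, 0.0535%). Gene lists were not run, since IDs have no names. Alternatives were a pseudocount of 0.1, no filter, each library left out, a replicate block, median ratio scaling, limma without its options (ID sums only), other level limits, and other definitions of the main row and of 0.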

Additional observations from a re-analysis of the deposited data

How the results depend on the processing

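By limma, 0 ID sums in 11 alternatives and 0 rows in 10 (the fit without trend and robust options was run on ID sums only) passed an adjusted p of 0.05. At an unadjusted p under 0.05 there were 9 to 20 ID sums (8.18% to 18.2% of those tested). All IDs had 7.58% to 13.3%. Of the rows 22 to 35 were found (10.4% to 16.8% of those tested), and all rows had 7.63% to 13.3%. The 9 came without AdCtrl24h replicate 2, with 477 of all 6295 IDs (7.58%). The 20 came without AdCtrl24h replicate 1, with 718 of all 6304 IDs (11.4%). Without AdBs24h replicate 1 the share was below that of all features, at 12.8% against 13.3% for ID sums and for rows alike. With the replicate block 0 ID sums and 0 rows passed, also among all IDs and rows. It gave 13 ID sums and 31 rows at an unadjusted p under 0.05, against 9.77% of all IDs and 9.92% of all rows. Same-numbered libraries had residual correlations of -0.0779, 0.0883 and -0.0243 over all IDs, and the libraries share only a number. ADIR007981, ADIR007987, ADIR014256 and ADIR014400 kept their directions in all alternatives, with log2 fold changes of 0.72 to 0.89, 0.54 to 0.69, -0.57 to -0.37 and -0.36 to -0.27. The median share of the main row was 81.2% among the 74 IDs with a sum of at least 5 TPM in every library, of which 7 had another main row in each group, and 81.8% to 84.3% without 1 replicate. Taken by the number of libraries in which a row leads, 7 of 100 IDs had another main row. IDs with shares that do not overlap numbered 15, and 22 to 28 without 1 replicate, where fewer libraries have to be apart. IDs with another main row numbered 9 to 13 without 1 replicate. Rows at 0 in all libraries numbered 84, and 99 with values under 0.1 TPM counted as 0. TPM holds no read counts per row, and the mapped reads per library that the study lists were not used. The precision of single values is therefore unknown.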

Other observations

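IDs with several rows were unevenly placed in the numbering of the IDs. The listed numbers stop at ADIR011752 and resume at ADIR014002. Of the 1929 IDs after this gap, 120 had several rows (6.22%), against 53 of 11321 IDs before it (0.468%). The 120 IDs after the gap had a median of 2.50 TPM and the 53 before it of 10.7 TPM, and IDs with 1 row had medians of 0.185 TPM after the gap and 0.869 TPM before it. In 15 cases 2 consecutive ID numbers both had several rows. The order of the numbers was not compared with positions in the genome.

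In ADIR008110 rows 2 and 3 had equal values in all 6 libraries, at 16.8, 20.4 and 13.6 TPM in AdBs24h and 19.3, 25.6 and 21.8 TPM in AdCtrl24h. It was the 1 pair of rows of an ID with equal values above 0. Each held a mean of 38.8% of the sum, and row 2, the first listed, was taken as the main row. The ID is therefore counted among the 77 with the same row in the lead in all 6 libraries, although rows 2 and 3 tie. It is also among the 10 with a main row share under 50%. Of the 15 IDs without overlap it has the smallest difference, at -2.15 percentage points.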
